A study of Homo sapiens with 4 samples.

Results

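The long arm of chromosome 4 (4q) was examined in the chromatin accessibility maps of SK-N-BE(2)C, an established MYCN-amplified neuroblastoma cell line. Its members were all deposited peaks on chromosome 4 of GRCh38 that start at 51.8 Mb or beyond, and they came to 1600 of 47610 control peaks and 766 of 42682 sgSNHG1 peaks. The arm was chosen because its peak numbers and peak heights were already known to be lower in the sgSNHG1 list, so these values are given as a description and support nothing. What follows asks which genes of the arm kept or lost a peak at their promoter, and what else the kept and lost peaks have in common.

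ATAC-seq, in which the Tn5 transposase inserts sequencing adapters into open chromatin, was run on 2 control and 2 sgSNHG1 replicates. Control cells carried a non-targeting gRNA and are labelled wild type. In the sgSNHG1 group Cas9 and paired gRNAs were directed at SNHG1, a long non-coding RNA gene on another chromosome, and its cells are labelled knockout in their genotype although the study speaks of knockdown. All cells went through puromycin selection and growth from sorted single cells, so each group stands for a clone or clones, and which sgSNHG1 clone was used is not given in the sources used here. The authors combined the replicates of a group before calling peaks, which leaves 1 list per group, no replicate spread and no test between conditions, and every interval below is a 95% interval that covers counting error only.

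Promoters of widely used genes usually lie in CpG-rich DNA that is free of nucleosomes in most cell types, and they give strong ATAC-seq peaks. Distal peaks mark enhancers, insulators and other elements, and differ far more between cell types. The 4q arm carries genes of mitosis, receptor tyrosine kinases, the CXCL chemokine and albumin gene clusters, HAND2, which encodes a transcription factor of the sympathetic neuron lineage, and, close to the telomere, the DUX4 repeats. Of 9 marker genes of adrenergic neuroblastoma, HAND2 among them, 8 had a promoter peak in both lists and TH, the tyrosine hydroxylase gene, had none. All 3 mesenchymal markers had a peak in both lists, while none of 3 haematopoietic markers and 1 of 2 markers each of epithelium (EPCAM), endothelium (CDH5) and hepatocytes (APOA1, not ALB) did. Over all chromosomes 12578 of 19970 protein-coding genes (63.0%) had a control promoter peak and 11345 had one in both lists. With such shares, these few markers say little about cell type.

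Sequences of some of the promoters and distal sites named below are printed first, from GRCh38. Each promoter run is the 200 bases upstream of the transcription start site (TSS), read 5′ to 3′ on the strand of the gene, and none of them overlaps an annotated exon. Capitals mark 4 motifs of ubiquitous promoter factors found on either strand: GCGCANGC (core of the NRF1 site), CCGGAAG (ETS family), TGACGTCA (CRE) and CCAAT. The first 5 promoters kept their peak and belong to genes of mitosis, splicing and translation. They are PLK4 at chr4:127880693-127880892 (+), CCNA2 at chr4:121823884-121824083 (-), CENPE at chr4:103198446-103198645 (-), PLRG1 at chr4:154550401-154550600 (-) and RPS3A at chr4:151099424-151099623 (+).
PLK4: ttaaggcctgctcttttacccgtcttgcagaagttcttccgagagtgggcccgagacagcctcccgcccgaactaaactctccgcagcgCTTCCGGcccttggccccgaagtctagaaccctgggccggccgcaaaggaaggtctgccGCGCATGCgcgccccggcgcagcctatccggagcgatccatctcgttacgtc
CCNA2: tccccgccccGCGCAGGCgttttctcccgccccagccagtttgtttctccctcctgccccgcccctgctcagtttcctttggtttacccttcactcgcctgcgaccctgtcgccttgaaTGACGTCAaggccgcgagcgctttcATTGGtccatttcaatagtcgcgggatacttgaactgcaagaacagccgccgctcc
CENPE: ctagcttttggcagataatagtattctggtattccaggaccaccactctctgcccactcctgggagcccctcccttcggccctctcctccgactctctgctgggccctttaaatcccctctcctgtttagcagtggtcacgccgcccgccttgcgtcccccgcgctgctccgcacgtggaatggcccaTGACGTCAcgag
PLRG1: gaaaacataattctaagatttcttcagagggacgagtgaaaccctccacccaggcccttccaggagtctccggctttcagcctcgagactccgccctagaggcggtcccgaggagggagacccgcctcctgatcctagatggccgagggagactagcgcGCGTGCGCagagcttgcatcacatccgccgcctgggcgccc
RPS3A: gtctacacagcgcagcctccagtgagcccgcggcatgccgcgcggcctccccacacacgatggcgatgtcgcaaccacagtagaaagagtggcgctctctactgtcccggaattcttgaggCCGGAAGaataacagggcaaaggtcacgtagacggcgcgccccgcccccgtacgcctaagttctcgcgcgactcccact

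The next 3 promoters lost their peak. They are FSTL5 at chr4:162164005-162164204 (-), KDR at chr4:55125596-55125795 (-) and GLRB at chr4:157075925-157076124 (+), and a single CCAAT in GLRB is their only match to the 4 motifs. The printed promoters do not stand for their classes. Over all 280 kept and 69 lost genes the same window held the NRF1 core in 15.7% and 4.35%. ETS lay in 7.86% and 4.35%, CRE in 4.29% and 5.80% and CCAAT in 25.4% and 23.2%.
FSTL5: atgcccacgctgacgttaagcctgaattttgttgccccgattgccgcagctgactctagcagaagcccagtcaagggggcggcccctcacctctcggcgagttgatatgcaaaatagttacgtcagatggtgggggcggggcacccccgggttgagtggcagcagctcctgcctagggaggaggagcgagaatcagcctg
KDR: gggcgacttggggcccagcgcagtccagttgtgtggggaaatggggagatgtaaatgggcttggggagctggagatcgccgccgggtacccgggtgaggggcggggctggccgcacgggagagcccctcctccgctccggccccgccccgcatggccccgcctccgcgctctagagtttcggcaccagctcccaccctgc
GLRB: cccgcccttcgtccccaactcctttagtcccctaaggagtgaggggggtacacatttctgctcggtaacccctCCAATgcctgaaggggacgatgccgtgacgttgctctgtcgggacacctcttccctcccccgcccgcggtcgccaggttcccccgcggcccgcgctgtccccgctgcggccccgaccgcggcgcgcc

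A further pair of runs holds 151 bases centred on the summits of strong distal control peaks, with capitals for AGATAA, a site of GATA factors, and the E-box CATCTG, on either strand. The kept site at chr4:173648008-173648158 lies within HAND2-AS1, a long non-coding RNA gene next to HAND2, outside annotated exons. The lost site at chr4:125017012-125017162 lies outside annotated genes, and FAT4 is its nearest protein-coding gene.
HAND2 distal site: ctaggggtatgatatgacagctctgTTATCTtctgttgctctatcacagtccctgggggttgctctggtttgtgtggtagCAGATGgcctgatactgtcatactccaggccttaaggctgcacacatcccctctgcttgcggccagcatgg
FAT4 distal site: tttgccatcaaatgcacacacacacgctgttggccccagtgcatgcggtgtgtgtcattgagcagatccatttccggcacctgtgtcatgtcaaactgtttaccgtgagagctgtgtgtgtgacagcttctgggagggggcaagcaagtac

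The sgSNHG1 list held 0.479 times as many peaks on 4q as the control list (log2 -1.06), against 0.860 on 4p (741 and 637 peaks) and 0.912 on the other chromosomes. The sequence covered by peaks on 4q was 681 kb in control and 236 kb in sgSNHG1 cells, a ratio of 0.347 beside 0.622 on 4p and 0.683 elsewhere. The summit pileup, the number of fragments at the highest point of a peak, had a median of 23 in control and 17 in sgSNHG1 peaks on 4q, and of 24 and 21 on the other chromosomes. Before the start of the arm, the nearest peaks of both lists lay at chr4:51107221-51107557 and chr4:51107225-51107557, with fold enrichments of 24.3 and 23.7. They lie 735443 bp from the nearest protein-coding start, that of DCUN1D4. Inside the arm, the nearest control peak at chr4:51831239-51831362 had a fold enrichment of 5.19 and was lost. The nearest sgSNHG1 peak at chr4:51842759-51843385, at the DCUN1D4 promoter, had 10.6. Single peaks so far apart do not place a boundary.

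The lower numbers extended over the whole arm. In each of 14 windows of 10 Mb the control list held more peaks (41 to 143) than the sgSNHG1 list (17 to 75), and the log2 ratio of the numbers ran from -1.36 to -0.74. The median log2 ratio of scaled pileup, the summit pileup over the genome-wide background of its own list, ran from -1.07 to -0.59 over the windows. Pairs whose control peak had a -log10 q of 20 or more gave medians from -1.15 to -0.81 in the windows, with 11 to 39 pairs in each.

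**Figure D1:**
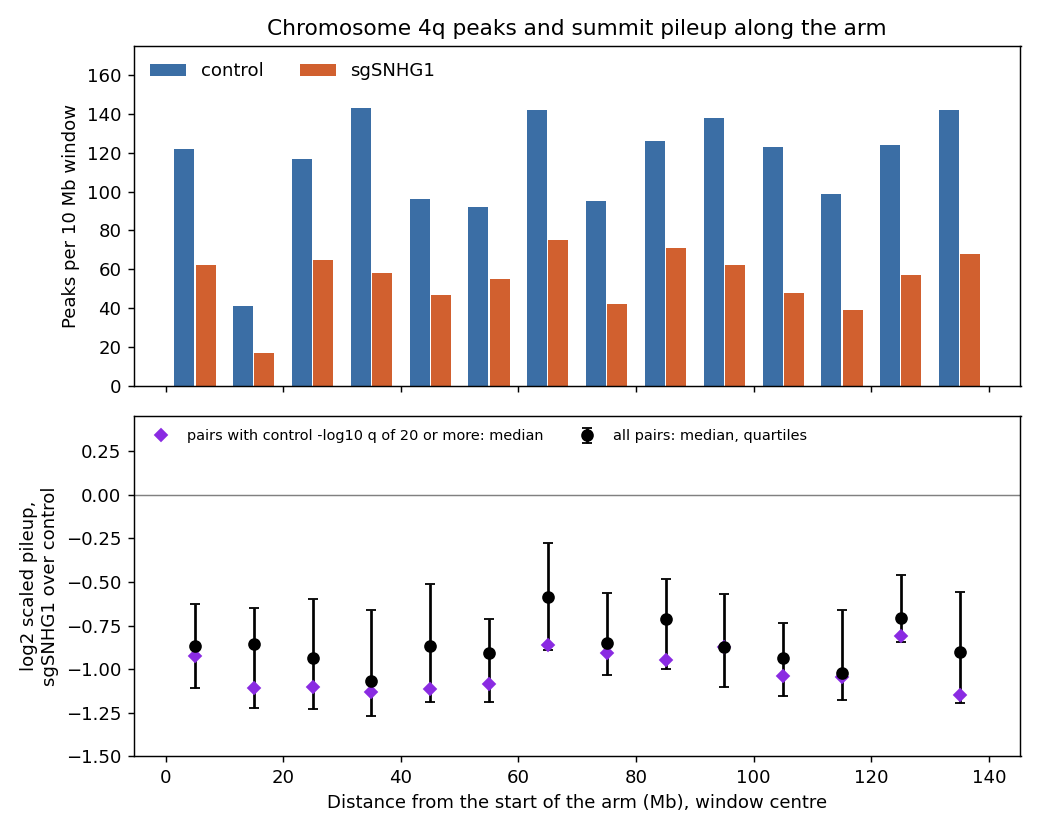
Peaks per 10 Mb window (top, bars; blue control, orange sgSNHG1) and median log2 ratio of scaled pileup, sgSNHG1 over control (bottom), against the distance of the window from the start of the arm in Mb; points are medians over all pairs with bars for the quartiles, and diamonds are medians over pairs with a control -log10 q of 20 or more. Every window has fewer sgSNHG1 peaks, and every median lies between -1.15 and -0.59, below 0.

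Of the 1600 control peaks on 4q, 662 were overlapped by an sgSNHG1 peak (41.4%, 39.0 to 43.8) and are called kept, while 938 were not (58.6%) and are called lost. Over all chromosomes 33.3% of control peaks were lost, and the rule that chose the arm used this contrast, so nothing is read from the difference. In the other direction 719 of the 766 sgSNHG1 peaks (93.9%) overlapped a control peak. The other 47 (6.14%) were found in the sgSNHG1 list alone, beside 21.8% over all chromosomes, and nothing is read from this contrast either.

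Peaks at promoters, here those overlapping the 3 kb on either side of the TSS of a protein-coding gene, were kept more often than distal peaks, on 4q as elsewhere. On 4q 262 of 366 promoter peaks (71.6%, 66.8 to 76.0) but 400 of 1234 distal peaks (32.4%, 29.9 to 35.1) were kept, a difference of 39.2 percentage points (33.7 to 44.2). Where peaks had to share 50% of their length in both lists, the kept share of all 4q control peaks fell from 41.4% to 22.3% and this difference to 18.9 points. The same difference was 22.1 points on 4p (14.1 to 28.8) and 20.8 points on the other chromosomes (19.9 to 21.6), and over all chromosomes 17.4% of promoter peaks and 39% of distal peaks were lost. Kept shares are the values the arm was chosen on, so nothing is read from the distance between these differences. The promoter share of 4q peaks was 22.9% (20.9 to 25) in control and 40.3% (36.9 to 43.9) in sgSNHG1 cells, while the shares were 20.1% and 22.4% on 4p and 26.4% and 28.4% elsewhere. The share in the sgSNHG1 list depends on which peaks were kept, so nothing is read from this contrast either.

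The strength of the control peak ordered the kept shares. On 4q 10 of 311 control peaks with a -log10 q under 5 (3.22%), 50 of 433 between 5 and 10 (11.5%), 177 of 380 between 10 and 20 (46.6%), 327 of 377 between 20 and 50 (86.7%) and 98 of 99 over 50 (99.0%) were kept. On the other chromosomes these shares were 24.3%, 54.6%, 85.7%, 98.8% and 99.9%, so that the distance between the arm and the rest was widest below a -log10 q of 20 and closed among the strongest peaks. Promoter peaks were also kept more often than distal peaks of the same strength class on 4q. Within the class of 10 to 20, 43 of 64 promoter peaks (67.2%, 55 to 77.4) and 134 of 316 distal peaks (42.4%, 37.1 to 47.9) were kept, and within the class of 20 to 50 the shares were 94.9% and 80.9%.

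**Figure D2:**
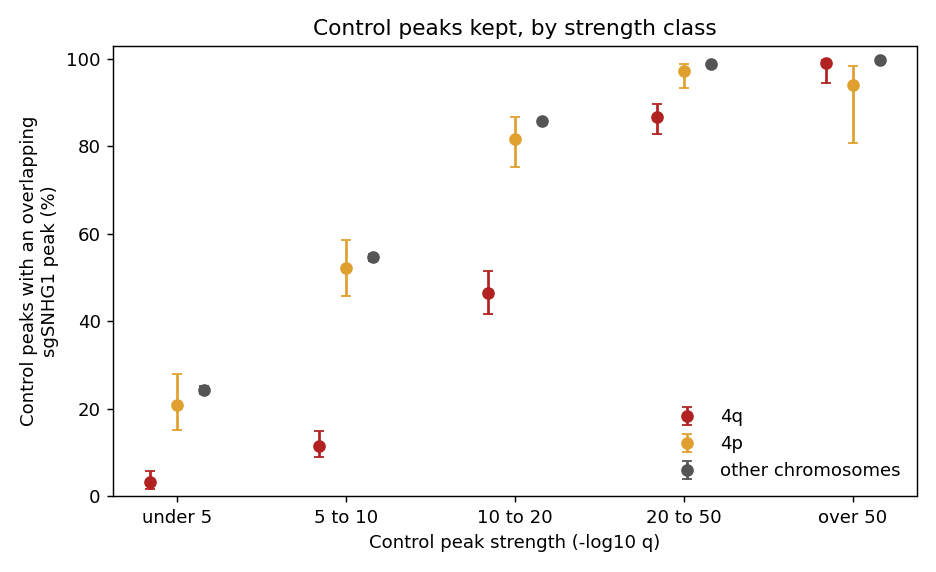
Percentage of control peaks overlapped by an sgSNHG1 peak (vertical axis) by class of control -log10 q (horizontal axis) for 4q, 4p and the other chromosomes; bars are 95% Wilson intervals. The 4q points lie lowest in the first 4 classes, at 3.22%, 11.5%, 46.6% and 86.7%, and reach 99.0% among peaks over 50.

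The heights of the 662 pairs of kept peaks were also lower in the sgSNHG1 list, which again is the contrast the arm was chosen on. Scaled pileup was lower in 626 of 662 pairs (94.6%, beside 50.9% over all chromosomes), with a median log2 ratio of -0.85 and quartiles of -1.14 and -0.54. Fold enrichment is the authors' ratio of summit pileup to local background, with a small constant added to both. It was lower in 79.8% of pairs (55.6% over all chromosomes), with a median of -0.28. The local background around the same peaks fell together with the pileup, with a median log2 ratio of -0.83, and it was lower in 661 of 662 pairs. A local background equal to the genome-wide minimum of its list, below which the peak caller does not go, was found for 57.8% of sgSNHG1 peaks and 24.4% of control peaks on 4q, beside 13.0% and 13.6% on the other chromosomes. Fewer copies of the arm and less open chromatin per copy would both lower these values and cannot be told apart here.

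Of 476 control peaks with a -log10 q of 20 or more 425 were kept, and in these pairs the scaled pileup of the sgSNHG1 peak was 0.502 times that of the control peak at the median and lower in 419 pairs. In the same class it was 0.871 times on 4p and 0.907 times on the other chromosomes. Weaker pairs showed smaller falls by construction, because a weak control peak that fell further would no longer be in the sgSNHG1 list. Paired promoter peaks had a median log2 scaled pileup of -0.997 and distal ones of -0.73, and their fold enrichments had medians of -0.28 and -0.29. The counting error of the log2 ratio of a pair had a median of 0.41. Ratios of -0.5 or less were reached by 519 pairs in scaled pileup (78.4%, beside 11.8% over all chromosomes) and by 185 in fold enrichment (27.9%, beside 9.06%).

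**Figure D3:**
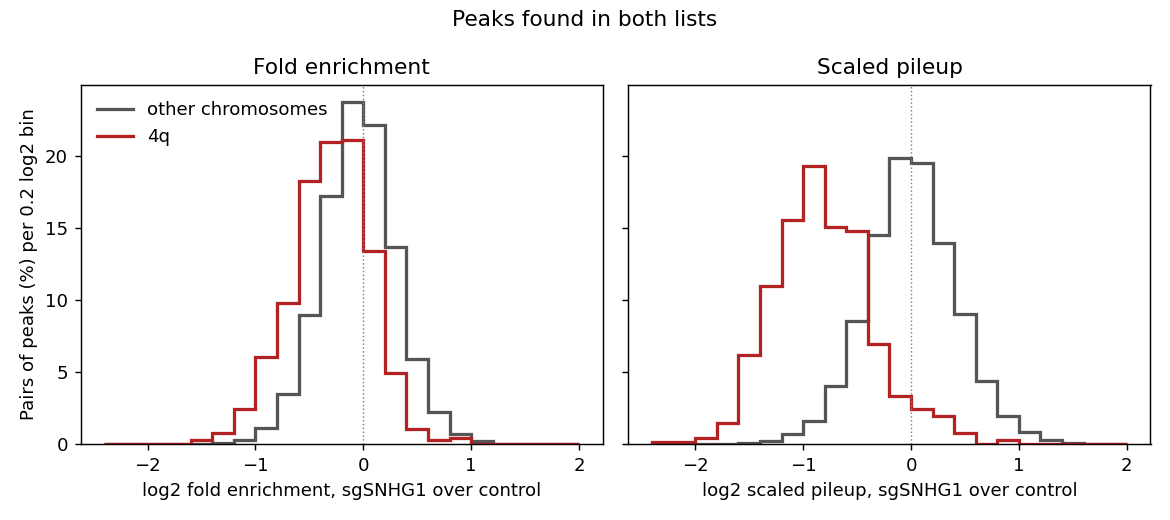
Share of pairs of overlapping peaks (vertical axis, percent per bin of 0.2) by log2 ratio of sgSNHG1 over control (horizontal axis), for fold enrichment (left) and scaled pileup (right); red is 4q and grey the other chromosomes. The scaled pileup of 4q pairs is centred at -0.85 and that of the other chromosomes near 0, while the fold enrichments, centred at -0.28 and -0.04, overlap widely.

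Of the 523 protein-coding genes on 4q, 349 had a promoter peak in the control list, 280 kept one in the sgSNHG1 list and 69 did not. The lost genes made up 19.8% of the 349 (15.9 to 24.3), beside 9.8% over all chromosomes, 14 of 150 genes on 4p (9.33%) and 9.52% elsewhere. No 4q gene had a promoter peak in the sgSNHG1 list alone, where 4.96% of genes without a control promoter peak did over all chromosomes, and 174 genes had none in either list. The arm was chosen for its lower sgSNHG1 peak numbers, so nothing is read from its lost and gained shares beside those elsewhere. Among the kept genes the highest promoter peaks of the 2 lists overlapped in 273 of 280. In 7, REST and BMPR1B among them, these highest peaks lay at separate sites of the promoter, and weaker peaks were not compared. Kept and lost genes differed in control strength, with median fold enrichments of 9.55 and 5.01 and median pileups of 58 and 18 fragments. By class of the strongest control -log10 q, 23 of 24 genes under 5, 21 of 26 between 5 and 10, 18 of 53 between 10 and 20 (34.0%), 7 of 172 between 20 and 50 (4.07%) and 0 of 74 over 50 were lost, where the other chromosomes lost 5.33% between 10 and 20 and 0.192% between 20 and 50. INTS12, RNF150, SLC39A8 and STOX2, counted among the lost, still had an sgSNHG1 peak at the TSS of another transcript.

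The genes with the strongest promoter peaks kept them. UTP3, which encodes a factor of ribosomal RNA processing, went from 16.7 to 14.8 in fold enrichment, with 124 and 50 fragments. CENPC, a centromere protein gene, stood at 15.8 and 15.9, from 126 and 57 fragments. PLRG1, a splicing factor gene whose upstream sequence holds the NRF1 core, stood at 14.3 and 15.2, from 87 and 45 fragments. The fold enrichments of CENPC and PLRG1 were thus level between the lists although their log2 scaled pileups were -0.79 and -0.59. CFAP299 and AASDH moved furthest in fold enrichment among pairs with a -log10 q of 10 or more in both lists. Their sgSNHG1 peaks had a local background at the minimum of the list (1.72 fragments), below which it cannot go, while that of CENPC stood at 2.65. Their log2 scaled pileups, which are not divided by the local background, were also low, at -1.56 and -1.58. The median over all kept genes of the arm was -0.99. Whether the minimum bears on their fold enrichments was not tested. CFAP299 went from 16.1 to 7.36 (72 and 19 fragments, log2 -1.13, counting SE 0.37) and AASDH from 15.02 to 7.36 (73 and 19 fragments, log2 -1.03, counting SE 0.37). GATB, METTL14, PPM1K and the shared promoter of UBE2D3 and CISD2 lay between, with control values from 14.6 to 15.6 and sgSNHG1 values from 8.90 to 11.9. METTL14 encodes a subunit of the RNA m6A methyltransferase and UBE2D3 a ubiquitin-conjugating enzyme.

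The strongest promoter peaks that were lost stood at a lower level. FSTL5 had a control fold enrichment of 11.3 from 46 fragments and HPSE, which encodes heparanase, 10.99 from 58 fragments. GLRB, the glycine receptor beta subunit gene, had 10.8 from 40 fragments, PDLIM3 9.94 from 40 and NDST3, a heparan sulfate sulfotransferase gene, 9.52 from 49. ZNF330, DDX60, the shared promoter of GLRA3 and ADAM29, and FHIP1A followed with 9.43, 8.53, 8.25 and 7.85. No peak was called in the sgSNHG1 list within 3 kb of these starts, which says that any signal there did not pass the limit of the peak caller (a -log10 q just over 2), not that it was absent. In the plot of promoter fold enrichments the lost genes crowd at the weak end of the control axis.

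**Figure D4:**
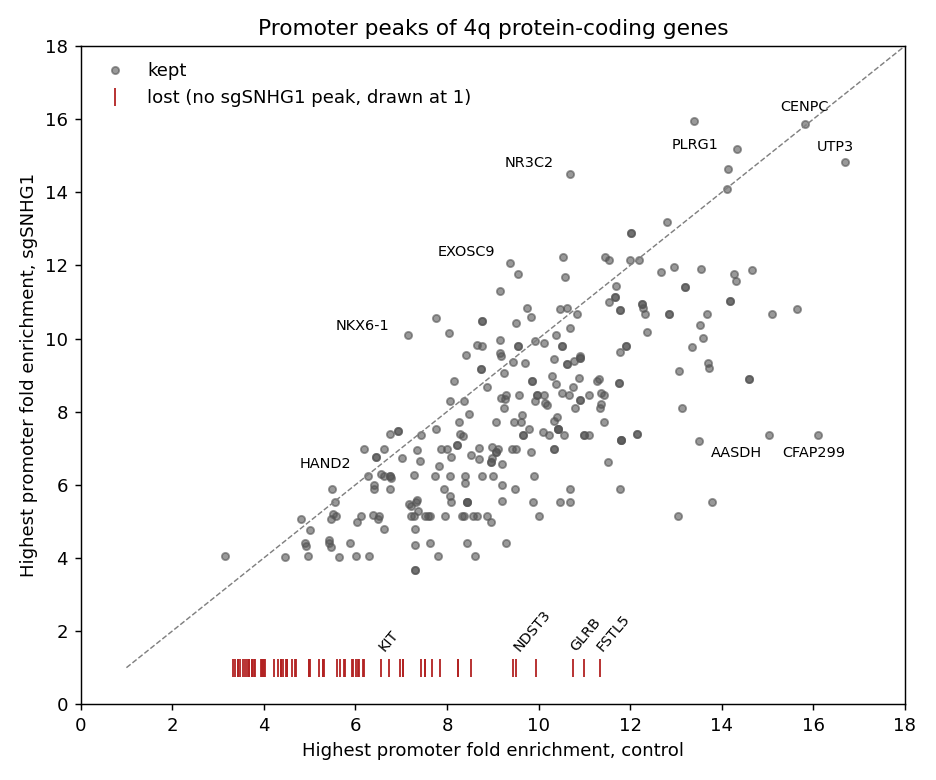
Highest promoter fold enrichment of each 4q protein-coding gene, control on the horizontal and sgSNHG1 on the vertical axis; grey points are the 280 kept genes, red ticks the 69 lost genes, drawn at 1 since they have no sgSNHG1 value, and the dashed line marks equal values. Lost genes lie between 3.33 and 11.3 on the control axis, and 231 of the 280 kept genes lie below the line.

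The gene lists below are read beside the whole arm, where 280 of 349 genes with a control promoter peak kept one (80.2%) and 239 of the 246 whose strongest control -log10 q was 20 or more did. All 17 genes of a list of cell cycle and mitosis genes kept a promoter peak, and all 17 were in that strong class. CENPE, which encodes a mitotic kinesin, went from a fold enrichment of 14.3 to 11.8 (74 and 31 fragments), CCNA2, the cyclin A2 gene, from 12.3 to 10.8 (74 and 44), MAD2L1, a spindle checkpoint gene, from 10.4 to 10.1 (89 and 37) and PLK4, the kinase of centriole duplication, from 9.16 to 9.62 (53 and 26). Scaled pileup was lower in 17 of 17, with a median log2 ratio of -1.06 beside -0.99 over all 280 kept genes of the arm. All 33 genes of a housekeeping list (RNA polymerase II, ribosomal and translation factor, vesicle coat and metabolic genes) were kept as well, and all 33 were in the strong class. RPL34 went from 11.5 to 12.1, RPS3A from 10.1 to 7.44, EIF4E, the cap-binding factor gene, from 9.64 to 7.90 and POLR2B, an RNA polymerase II subunit gene, from 9.55 to 9.80.

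Of 11 genes of DNA repair and cell death, 10 kept their peak, all of them in the strong class, and ABRAXAS1 had none in either list. EXOSC9, a subunit gene of the RNA exosome, was among only 3 genes of the arm whose promoter was not lower in scaled pileup. It went from a fold enrichment of 9.37 to 12.1 with 39 and 35 fragments (log2 scaled pileup 0.20, counting SE 0.34), and the other 2 were NKX6-1 (0.01) and GASK1B (0.36, from 10 fragments in each list). Of 14 chromatin and corepressor genes 13 were kept, 11 of them in the strong class, with SETD7 at no peak in either list. HMGB2 went from 10.6 to 10.8 (110 and 46 fragments), SMARCA5, a chromatin remodeller gene, from 10.8 to 9.38, TET2, a 5-methylcytosine dioxygenase gene, from 11.1 to 7.36, and SAP30, a subunit gene of the SIN3 and HDAC complex, from 10.3 to 7.75.

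Of 17 developmental transcription factor genes 10 kept a promoter peak and 4 lost it. The lost ones were 28.6% of the 14 with a control peak, near the 19.8% of the arm. HAND2 stood at 6.28 in the control and 6.25 in the sgSNHG1 list (45 and 24 fragments, log2 scaled pileup -0.55, counting SE 0.36), NKX6-1, a homeobox gene, at 7.15 and 10.1, NR3C2, the mineralocorticoid receptor gene, at 10.7 and 14.5 and NEUROG2, a proneural gene, at 5.65 and 4.01. The lost ones were GSX2 (4.48 in control), ATOH1 (5.21), LEF1 (3.54), the Wnt effector, and IRF2 (6.97), while HOPX and ZFP42 were among those with no peak in either list. In a list of 13 genes of BMP, Wnt and Hippo signalling, 6 were kept, among them SMAD1 (6.57 and 6.30) and the protocadherin gene FAT4 (7.29 and 6.26), and LEF1, DCHS2 and TLL1 were lost (33.3% of 9 with a control peak).

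Growth factor and receptor tyrosine kinase genes were lost more often than kept. Of 15 such genes 11 had a control promoter peak and 8 of these lost it, against 69 of 349 on the arm. They were the receptor genes KIT (6.56 in control, 32 fragments), KDR (7.05, 23 fragments) and EPHA5 (6.09, 23 fragments), and the genes of the secreted factors FGF2, PDGFC, EREG, AREG and IGFBP7, between 4.37 and 5.60 from 13 to 20 fragments. FGF5 (6.63 and 6.99), the signalling inhibitor gene SPRY1 (6.62 and 4.78) and VEGFC (7.28 and 5.15) kept a peak, with 31 to 33 control fragments, and PDGFRA, EGF, BTC and EPGN had none in either list. The strongest control -log10 q of KIT, KDR and EPHA5 was 15.7, 12.8 and 10.97, in the class in which 18 of 53 genes of the arm were lost, and the 5 secreted factors lay below 10, where 23 of 24 and 21 of 26 were lost.

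Of 23 neuronal and synaptic genes 14 kept a promoter peak, 4 lost it and 5 had none. The lost ones were 22.2% of the 18 with a control peak, about the share of the arm. ANK2, which encodes an axonal ankyrin, stood at 9.84 and 10.6, MAPK10, the neuronal JNK3 gene, at 11.8 and 8.79, and PCDH10 at 9.19 and 8.38. The lost members were GLRB, NDST3, ADGRL3 (6.18), an adhesion receptor gene, and SORBS2 (4.00). In a list of 36 genes restricted to other tissues, such as the albumin, fibrinogen, casein and UGT2B genes, 34 had no promoter peak in either list and the other 2, PF4 (3.58) and SPP1 (6.07), lost theirs.

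**Figure D5:**
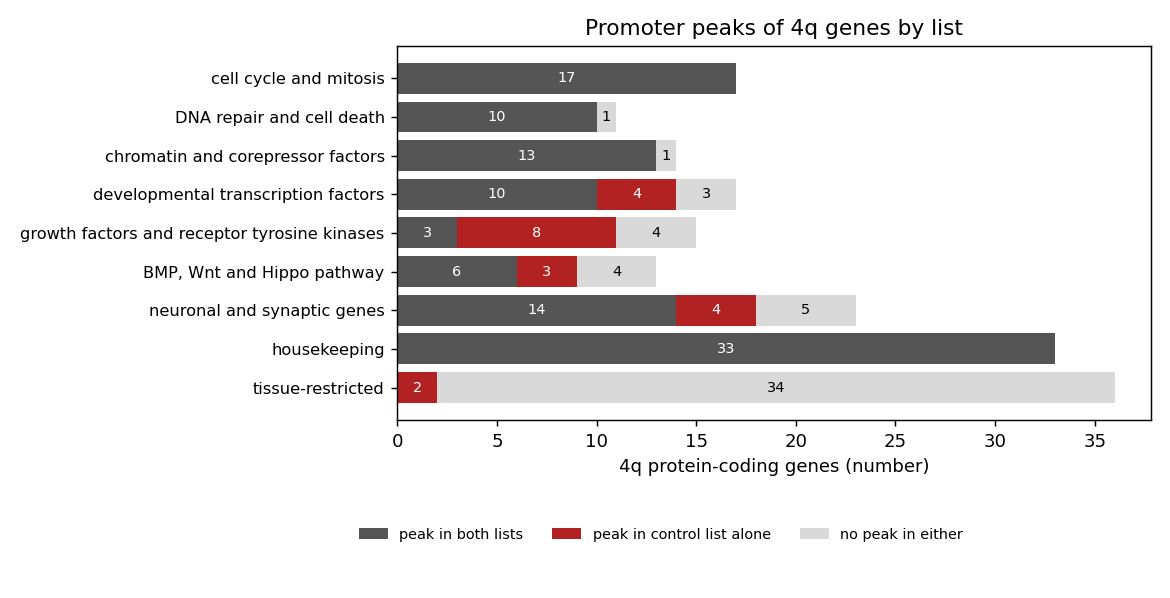
Number of 4q genes of each list (horizontal axis) with a promoter peak in both lists (dark grey), in the control list alone (red) or in neither (light grey). The cell cycle (17) and housekeeping (33) bars are grey throughout, while 8 of 15 growth factor and receptor genes are red.

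CpG content differed among the 3 classes of genes. Of the 523 genes 453 matched a RefSeq promoter, 250 bases before to 50 after the start, and CpG-rich ones had at least 50% G and C and a CpG ratio (observed over expected) of at least 0.6. They made up 199 of 238 kept promoters (83.6%, 78.4 to 87.8), 41 of 60 lost promoters (68.3%, 55.8 to 78.7) and 27 of 155 promoters with no peak in either list (17.4%, 12.3 to 24.2). The intervals of kept and lost promoters touch, and most lost promoters were of the CpG-rich kind. The order of the classes was the same on the other chromosomes, at 83.4% of kept, 66.4% of lost and 30.2% of peakless promoters. On 4p the shares were 87.7%, 66.7% and 45.1%. The lost share there rests on 6 of 9 promoters (35.4 to 87.9), an interval that overlaps those of both other classes.

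The motifs capitalised in the printed sequences were then counted in the 201 bases around the summits of promoter peaks. The NRF1 core lay in 43 of 262 kept peaks (16.4%) and 5 of 104 lost peaks (4.81%), a difference of 11.6 points (4.43 to 17.3). ETS sites lay in 11.1% and 0.962% (difference 10.1 points, 4.73 to 14.6) and CCAAT in 27.9% and 14.4% (13.4 points, 3.95 to 21.4). On the other chromosomes kept and lost promoter peaks held the NRF1 core in 16.1% and 8.71%, ETS in 14.6% and 4.06% and CCAAT in 30.3% and 14.7%, so the direction was not peculiar to the arm. With control strength held between 10 and 20 the 4q differences were 2.21, 9.30 and 8.97 points for NRF1, ETS and CCAAT. From 43 kept and 21 lost peaks, their wide intervals all included 0. On the other chromosomes the same class held 2903 kept and 220 lost peaks. There the interval included 0 for NRF1 (1.86 points, -3.45 to 6.01) but not for ETS (10.1, 6.39 to 12.4) or CCAAT (7.32, 1.57 to 12.0). In the 200 bases upstream of the start, the window printed above, the NRF1 core lay in 52 of all 523 genes (9.94%), in 44 of 280 kept and in 3 of 69 lost ones, ETS in 29 (5.54%), CRE in 16 (3.06%) and CCAAT in 144 (27.5%), and CRE and CCAAT were found at like rates in kept and lost promoters (4.29% and 5.80%, 25.4% and 23.2%).

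Distal peaks near a gene start were kept more often than remote ones. The kept share was 43.4% (32.9 to 54.6) at 3 to 10 kb from the nearest protein-coding start, 33.8% at 10 to 50 kb, 33.7% at 50 to 200 kb and 27.0% (22.7 to 31.9) beyond 200 kb, and on the other chromosomes the same classes gave 64.0% (62.4 to 65.6), 63.6%, 61.6% and 59.7% (58.6 to 60.9), in the same direction. On 4p it lay between 57.8% and 60.6% in all 4 classes. The median control -log10 q was 10.7 in the nearest and 8.21 in the farthest class. Distal peaks inside a protein-coding gene were kept in 237 of 645 cases (36.7%, 33.1 to 40.5) and those outside in 163 of 589 (27.7%, 24.2 to 31.4). The other chromosomes kept 61.7% and 62.6%, and 4p 57.8% and 62.0%, so neither had the higher share inside genes. Control strength was not held equal here. Distal peaks nearest to genes with a kept, a lost and no promoter peak were kept in 32.7%, 31.3% and 32.1% of cases.

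The arm kept 400 of its 1234 distal control peaks (32.4%), and over all chromosomes 39% of distal control peaks were lost. TENM3, a teneurin gene of neuronal wiring, had the most distal control peaks, 33, of which 7 were kept (21.2%). FBXO8 followed with 31 (17 kept), UNC5C, a netrin receptor gene, with 23 (9), MAB21L2 with 19 (10) and the Notch coactivator gene MAML3 with 18 (8). HAND2 had 16, of which 5 were kept (31.25%, about the share of the arm). Among these was the site printed above, which went from a fold enrichment of 15.2 to 8.46 (60 and 22 fragments, log2 -0.84, counting SE 0.36). Apart from the subtelomere, the strongest kept distal sites lay over an exon at the MTHFD2L gene, chr4:74157724-74158459, with 17.7 and 14.1 from 126 and 41 fragments, and within CCSER1, outside annotated exons, at chr4:91064279-91064985, with 17.5 and 19.2 from 128 and 64 fragments. The strongest lost ones lay over an exon of ANKRD17 (13.6 in control), at the printed site near FAT4 (12.6, 52 fragments), and more than 1 Mb from PCDH10 (12.5) and SCLT1 (10.9). In distal summit windows the E-box CAGCTG lay in 22.3% of kept and 14.4% of lost peaks (difference 7.86 points, 3.29 to 12.7). With strength held between 10 and 20 the shares were 26.1% and 14.3% (11.8 points, 2.96 to 21.0). On the other chromosomes they were 23.2% and 18.2%, but on 4p kept and lost peaks were about level, at 19.8% and 20.6%. CATCTG lay in 32.8% and 27.1% of kept and lost 4q peaks (difference 5.65 points, 0.247 to 11.2). With strength held between 10 and 20 its interval included 0 (4.81 points, -5.30 to 15.1). The intervals of the differences for GATA (21.8% and 18.8%), AP-1 (TGANTCA, 11.5% and 10.3%) and the CTCF core (AGNNGGC, 48.5% and 43.9%, a pattern common enough to be found in most promoter windows as well) included 0. In all, 9 motifs were counted in promoter and distal windows each.

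Not every site was lower. Of the 662 pairs, 36 were not lower in scaled pileup, and 23 of these had a control -log10 q under 10. At the very end of the arm, next to the DUX4 repeats, 3 of 4 kept distal sites stayed within a counting error of equal scaled pileup. The peak at chr4:190179291-190180003, inside DUX4, had fold enrichments of 31.7 and 36.2 from 461 and 338 fragments (log2 scaled pileup -0.09, counting SE 0.10), the one at chr4:190022460-190022771 had 22.4 and 21.0 (0.00, counting SE 0.23) and the last control peak at chr4:190181525-190181741 had 7.41 and 9.62 (0.10, counting SE 0.21). The other kept site there, chr4:190177621-190178259, lay beyond a counting error, with 10.3 and 10.5 from 149 and 97 fragments (log2 scaled pileup -0.26, counting SE 0.19). The DUX4 and FRG2 repeats have near-identical copies on other chromosomes, so the placement of these reads is uncertain. FRG1, which lies 240 kb before the last peak, went from 12.4 to 10.2 with 70 and 33 fragments. The same stretch held the strongest control-only distal peak (19.3, chr4:190049433-190049950) and the strongest sgSNHG1-only one (12.5, chr4:190082009-190082190), and the other sgSNHG1-only distal peaks of the arm reached at most 8.41.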

How the data were processed

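ATAC-seq of 4 samples (2 control, 2 sgSNHG1) was processed by the authors: adapters were trimmed with cutadapt, reads aligned to GRCh38 with BWA, duplicates marked with GATK and Picard and removed with multiply mapped, mitochondrial and blacklisted reads, ends shifted to the transposase cut with deepTools, replicates combined, and peaks called with MACS2 in paired-end mode, keeping all remaining fragments. Versions, and the significance limit, are not given in the sources used here. In the deposited lists each peak has a score (10 times the -log10 q, capped), a fold enrichment, a -log10 p-value and a -log10 q-value. The fold enrichment is a ratio of summit pileup to local background, with a small constant added to both. Pooling hides peaks that rest on 1 library, and duplicate removal lowers the highest pileups. Peaks were grouped by the labels of the samples pooled.

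The whole-number pileup and local background at each summit were solved from the fold enrichment and -log10 p (within 0.001) for 47609 of 47610 control and 42682 of 42682 sgSNHG1 peaks, after a test on simulated data. The smallest background (2.20 and 1.72 fragments) was the divisor of the scaled pileup. Total fragments are not known from the lists. Peaks overlapping by at least 1 bp counted as kept, pairs were mutual best overlaps, and counting SEs came from the 2 pileups. Genes were GENCODE 44 protein-coding records, and the promoter value of a gene was its highest fold enrichment. Motifs and CpG were read from GRCh38 and RefSeq promoters of the same build. The NRF1 and CTCF patterns were shortened to their cores after longer forms had been counted in these data, and the longer forms are not reported. Shares have Wilson and differences Newcombe intervals (95%), computed with Python 3.11.15, pandas 2.3.3 and scipy 1.17.1. Genes were named by rule: list members, the 10 strongest kept and lost promoters, the 5 strongest distal peaks of each list alone, the 5 genes with most distal peaks and the 5 pairs at either end. The members, lists and rules were chosen with earlier results of these data known. GASK1B, FRG1 and genes named for a peak at another transcript or site were singled out after their values were seen. Alternatives for the significance limit, overlap, promoter window, TSS, gene type and measure are given at the end. The values of a few listed genes are not reported here, although the counts of their lists include them.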

Additional observations from a re-analysis of the deposited data

How the results depend on the processing

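Of 40 alternative values, 28 stayed within the yardstick set for them, a counting interval, 1.5 times a count or the counting error of a pair. The other 12 moved, most of them counts or shares, which cannot change sign. The difference between promoter and distal peaks and the median log2 ratio of pairs, which could, kept theirs. Where peaks had to share 50% of their length in both lists, the kept share of 4q control peaks was 22.3% and the difference between promoter and distal peaks 18.9 points. With all annotated gene types 428 genes kept, 136 lost and 3 gained a promoter peak. With a control -log10 q of at least 10 there were 25 lost genes, 8.36% of those with a control peak. The promoter share of control peaks was 25.5% with a -log10 q of at least 5, 20.6% with a window of 1 kb and 31.6% with the starts of all transcripts, which gave 51.3% in the sgSNHG1 list. Scaled pileup in place of fold enrichment moved the median log2 ratio of pairs to -0.85. An alternative chosen after seeing the data, a search for sgSNHG1 peaks within 10 kb of the start, left 68 of the 69 lost genes without a peak. The lists are pools, so leaving out a replicate could not be done. No paired analysis was possible because each group has 1 pooled list and no value per replicate. Below a -log10 q of 10 most 4q control peaks have no counterpart, the part of depth in this was not tested, and a lost peak means a signal under the limit of the peak caller.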
